A study of Mus musculus with 14 samples.

Results

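Myostatin and activin signaling genes are a set of 10 mouse genes. Apart from Fstl1, a relative of follistatin, they carry, restrain or transmit the signals of myostatin and the activins. They were chosen by name from the pathway, as Mstn, Gdf11, Fst, Fstl1, Fstl3, Acvr1b, Acvr2a, Acvr2b, Smad3 and Smad7. The choice was made with earlier results of these data known, so their counts against all genes are descriptions. All 10 were found among the 54532 genes of the count table, and all 10 passed the filter on low counts that left 15458 genes to test.

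The data are poly-A RNA-seq counts of 14 libraries from skeletal muscle of male FVB/N mice. The question was how c-Myc overexpression in endothelial cells changes the response of muscle to an obesogenic diet. The overexpressing mice (OE) carried a human c-Myc transgene under a tetracycline operator (tetO-MYC) and a tetracycline transactivator (tTA) driven by the endothelial Cdh5 promoter. Control mice (CT) carried the operator transgene without the transactivator. Every mouse was raised on doxycycline, which was withdrawn at 4 to 6 weeks of age to switch the transgene on where the transactivator was present. The diets were a control diet (CTD, TD.08485) and a high-fat western diet (WD, TD.88137), given for 20 weeks according to the labels (the study's text also gives a shorter time). The groups were CT-CTD with 3 libraries, CT-WD with 3, OE-CTD with 4 and OE-WD with 4. Neither the age at collection nor the muscle behind each library is stated.

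Myostatin, activins and GDF11 are secreted ligands of the TGF-beta family that bind a type II receptor, which then activates a type I receptor. The active receptor pair phosphorylates Smad2 and Smad3, which enter the nucleus with Smad4 and change transcription. In skeletal muscle the pathway is best known as a brake on growth: animals without myostatin have enlarged muscles, and follistatin, which binds and neutralizes the ligands, has a similar effect in excess.

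Levels below are CPM, counts scaled to a common library total and normalized between libraries by edgeR's trimmed mean of M values (TMM), and levels compared between genes are FPKM, which also divide by transcript length. Differences are log2 fold changes from edgeR's quasi-likelihood test, each with its standard error (SE), with p-values adjusted by the Benjamini-Hochberg method over 15458 genes. A gene was called when its adjusted p was under 0.05 and its fold over 1.5, and results that passed only an unadjusted p under 0.05 are given as such. Nothing in the labels says that each library comes from a separate animal, so p-values measure the spread between these libraries. In bulk muscle, fewer cells of a type and less RNA in each cell cannot be told apart.

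The libraries held 21833839 to 28519159 counts, and several stood apart from their groups. On the first principal component, which held 28% of the variance, CT-CTD 2, CT-CTD 3, CT-WD 2 and CT-WD 3 lay at -33.3, -33.1, -39.2 and -47, while CT-WD 1 lay at 20.3 among the overexpressing libraries and CT-CTD 1 at -0.154. On the second component, with 12.6% of the variance, OE-CTD 4 lay at -47.6 and OE-WD 4 at -28.9, apart from the other 12 libraries. OE-CTD 4 and OE-WD 4 also had the lowest normalization factors (0.888 and 0.899) and the highest shares of mitochondrial reads (14.9% and 14.5%). Results are therefore also given without CT-WD 1, OE-CTD 4 and OE-WD 4, a setting chosen after seeing the data. It keeps CT-CTD 1. Because CT-WD 1 was left out for lying among the overexpressing libraries, this setting can widen differences between genotypes by construction. The label codes of 3 of the 4 OE-CTD libraries share 1 number, as do those of all 4 OE-WD libraries, whereas all control codes differ; what the number means is not stated. A second setting chosen after seeing the data sums the libraries that share a number, which leaves OE-CTD with 2 samples and OE-WD with 1, whose spread is then assumed to be like that of the other groups. Group sizes stated elsewhere in the study fit the labels only if the names CT-WD and OE-CTD were exchanged. The labels were kept, and that exchange is given as an alternative.

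All 8 defining markers of skeletal muscle were present in every library, led by the fast myosin Myh4 at 38330 to 62700 CPM. The mouse Myc gene does not check the genotype labels. It was measured at 4.59, 6.11 and 4.45 CPM in CT-CTD, at 8.71, 4.93 and 13.3 CPM in CT-WD, at 6.63, 5.87, 6.84 and 3.06 CPM in OE-CTD and at 9.03, 5.61, 5.74 and 5.22 CPM in OE-WD. The highest value lay in a control library, the genotypes overlapped on both diets, and the table has no entry for the human transgene.

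Per transcript length, the ligand Mstn had the highest mean over the 14 libraries at 35.0 FPKM, followed by the signal transducer Smad3 at 27.2 FPKM. The type I receptor gene Acvr1b followed at 16.6 FPKM, the secreted protein gene Fstl1 at 13.0 FPKM and the type II receptor gene Acvr2a at 8.48 FPKM. Gdf11 at 3.15 FPKM and Smad7 at 2.39 FPKM came next. Fst at 0.899 FPKM, Fstl3 at 0.579 FPKM and Acvr2b at 0.563 FPKM were the lowest of the 10, and the ranges of these 3 genes over the libraries overlapped. The order of group means differed in places: Acvr2a (9.85 FPKM) was above Fstl1 (8.05 FPKM) in CT-CTD, Fstl1 (15.9 FPKM) above Acvr1b (15.6 FPKM) in OE-CTD, and Smad7 (2.99 FPKM) above Gdf11 (2.51 FPKM) in CT-WD. In CT-CTD, Acvr2b (0.632 FPKM) was also above Fstl3 (0.355 FPKM), with no overlap between libraries.

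**Figure D1:**
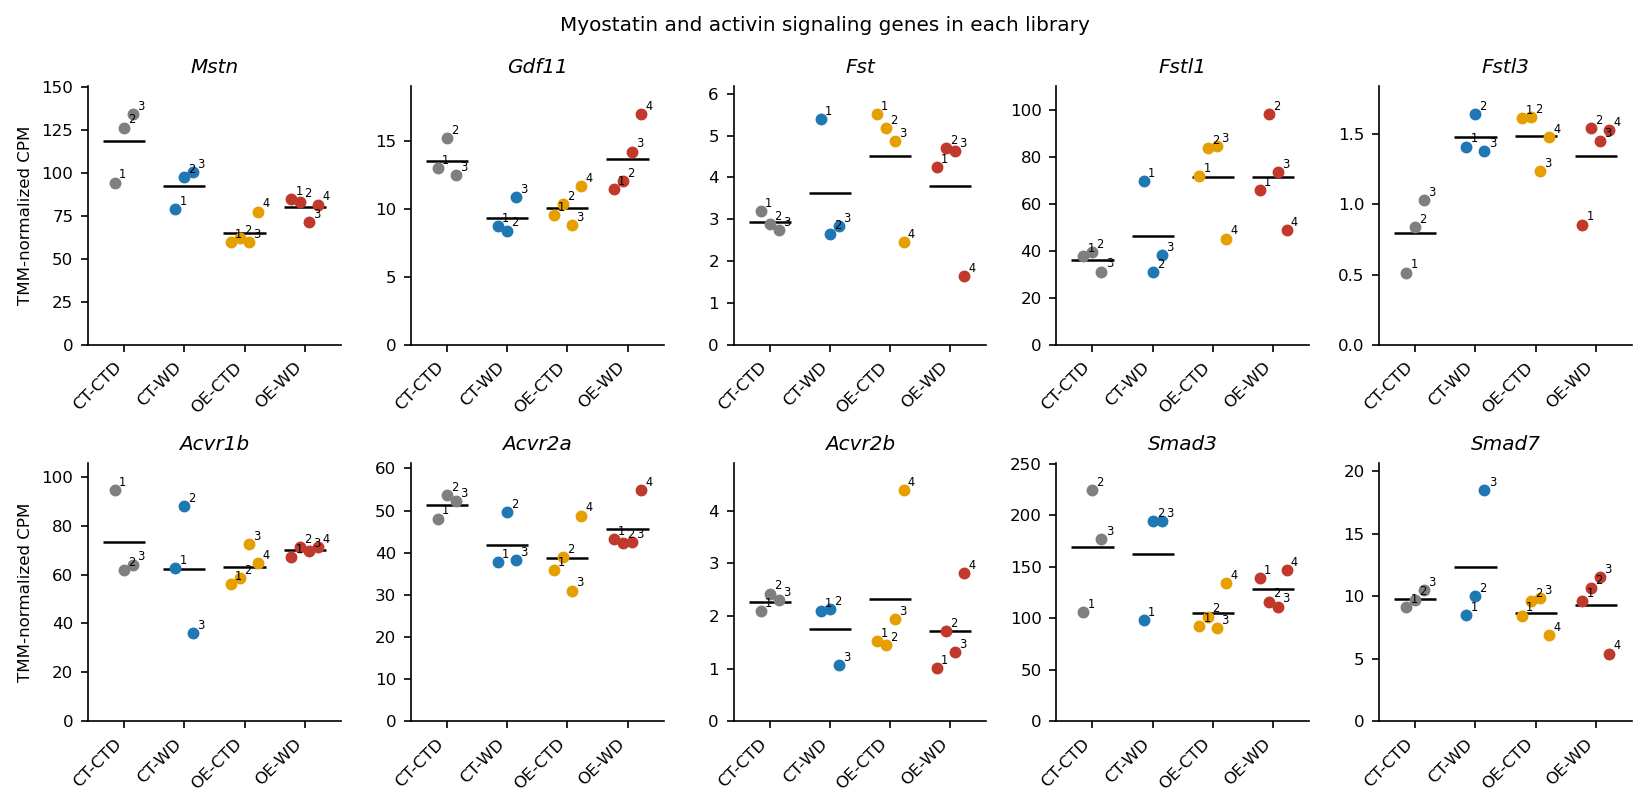
TMM-normalized CPM of the 10 genes in each of the 14 libraries by group, with library numbers beside the points and a line at each group mean. Mstn lies at 59.5 to 77.4 CPM in OE-CTD, below all 3 CT-CTD libraries.

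Mstn (ENSMUSG00000026100, chromosome 1, 53061640 to 53068079, plus strand, mm10) encodes myostatin, the ligand that restrains muscle growth. Libraries 1 to 3 of CT-CTD held 94.3, 126 and 134 CPM of it, against 78.8, 97.4 and 100.3 CPM in those of CT-WD. In the overexpressing mice it was 59.9, 62.2, 59.5 and 77.4 CPM in OE-CTD libraries 1 to 4 and 84.8, 83.2, 71.5 and 81.5 CPM in OE-WD libraries 1 to 4. CT-CTD was the highest group and OE-CTD the lowest, with all 4 OE-CTD libraries below all 3 CT-CTD libraries, while OE-WD overlapped both OE-CTD and CT-WD. On the control diet Mstn fell by 0.87 on the log2 scale in overexpressing mice (SE 0.13, fold 1.83, edgeR adjusted p = 0.00575), rank 11 of the 15458 genes by p. The call held when each CT-CTD or OE-CTD library was left out in turn, with log2 fold changes from -1.01 to -0.77 and edgeR adjusted p from 0.00112 to 0.0301. It was lost with the replicate number as a block, as given with the alternatives below. Deviations of same-numbered libraries of these groups had r = 0.0465, -0.113 and -0.122. Leaving out CT-WD 1, OE-CTD 4 and OE-WD 4 together gave a log2 fold change of -0.97 (edgeR adjusted p = 0.0013), and DESeq2 gave the lowest adjusted p of the alternatives, 4.79e-07. With libraries of the same code number summed it was -0.78 and the call was lost (edgeR adjusted p = 0.222). If the names CT-WD and OE-CTD were exchanged, the call would by construction be one of diet in control mice, and the genotype difference on the control diet would be -0.36 (edgeR adjusted p = 0.595).

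On the western diet the genotypes overlapped in Mstn, at a log2 fold change of -0.20 (SE 0.13, edgeR adjusted p = 0.464). With 1 library of these groups left out at a time, it lay between -0.3 and -0.133, at an edgeR unadjusted p from 0.041 to 0.371. Averaged over both diets, Mstn was lower in overexpressing mice by a log2 fold change of -0.53 (SE 0.091, edgeR adjusted p = 0.00317), which passed the adjusted p but not the fold, at 1.45. It counted as a call without CT-CTD 1 (log2 fold change -0.60, edgeR adjusted p = 0.000929), without CT-WD 1 (-0.59, edgeR adjusted p = 0.000686, at the edge of the fold) and without CT-WD 1, OE-CTD 4 and OE-WD 4 together (-0.64, edgeR adjusted p = 0.000451). The diet estimates had opposite signs in the 2 genotypes. In control mice the log2 fold change on the western diet was -0.36 (SE 0.14, edgeR unadjusted p = 0.0192), and the groups overlapped, with CT-CTD 1 below CT-WD 2 and CT-WD 3. In each of the 3 pairs of control libraries with the same number, Mstn was lower on the western diet. In overexpressing mice it was 0.31 (SE 0.12, edgeR unadjusted p = 0.02), with OE-CTD 4 above OE-WD 3 and every other OE-CTD library below all OE-WD libraries. The difference between the diet estimates was 0.67 on the log2 scale (SE 0.18, edgeR unadjusted p = 0.00216), which did not pass adjustment (edgeR adjusted p = 0.825). The diet estimate in control mice had an unadjusted p of 0.0658 without CT-CTD 2, 0.0992 without CT-CTD 3 and 0.0918 without CT-WD 1. In overexpressing mice it had an unadjusted p of 0.0564 without OE-CTD 1 and 0.0532 without OE-CTD 3.

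Gdf11 (ENSMUSG00000025352, chromosome 10, 128882295 to 128891718, minus strand) encodes the closest relative of myostatin and acts through the same receptors. It was measured at 13.0, 15.2 and 12.5 CPM in CT-CTD, at 8.71, 8.41 and 10.9 CPM in CT-WD, at 9.55, 10.3, 8.82 and 11.7 CPM in OE-CTD and at 11.4, 12.1, 14.2 and 17.0 CPM in OE-WD. All CT-CTD libraries lay above all CT-WD and all OE-CTD libraries, and all OE-WD libraries above all CT-WD libraries, while in overexpressing mice the diets overlapped only through OE-CTD 4 and OE-WD 1. The log2 fold change on the western diet was -0.54 in control mice (SE 0.16, edgeR unadjusted p = 0.00458) and 0.44 in overexpressing mice (SE 0.14, edgeR unadjusted p = 0.00644). Neither passed adjustment (edgeR adjusted p = 0.507 and 1). Overexpressing mice had a log2 fold change of 0.55 against controls on the western diet (SE 0.15, edgeR adjusted p = 0.101) and of -0.43 on the control diet (SE 0.15, edgeR adjusted p = 0.161). The latter had an unadjusted p of 0.0121, and of 0.0666 without CT-CTD 2.

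The difference between the diet estimates of Gdf11 was 0.97 on the log2 scale (SE 0.21, edgeR unadjusted p = 0.000348), rank 6 of 15458 genes by p. It did not pass adjustment in edgeR (adjusted p = 0.675) or DESeq2 (adjusted p = 0.0516), and passed in edgeR with no filter on low counts (adjusted p = 0.0481). A fit with no filter also draws its spread from genes with few or no counts, and its calibration was not tested. Over all alternatives run, edgeR, DESeq2 and limma gave adjusted p from 0.0481 to 1, and the estimate lay between 0.73 and 1.10 with an unadjusted p under 0.05 in each. It was 0.87 without CT-WD 1, OE-CTD 4 and OE-WD 4 (edgeR unadjusted p = 0.000906), and with libraries of the same code number summed it was 0.90 (edgeR unadjusted p = 0.00729).

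**Figure D2:**
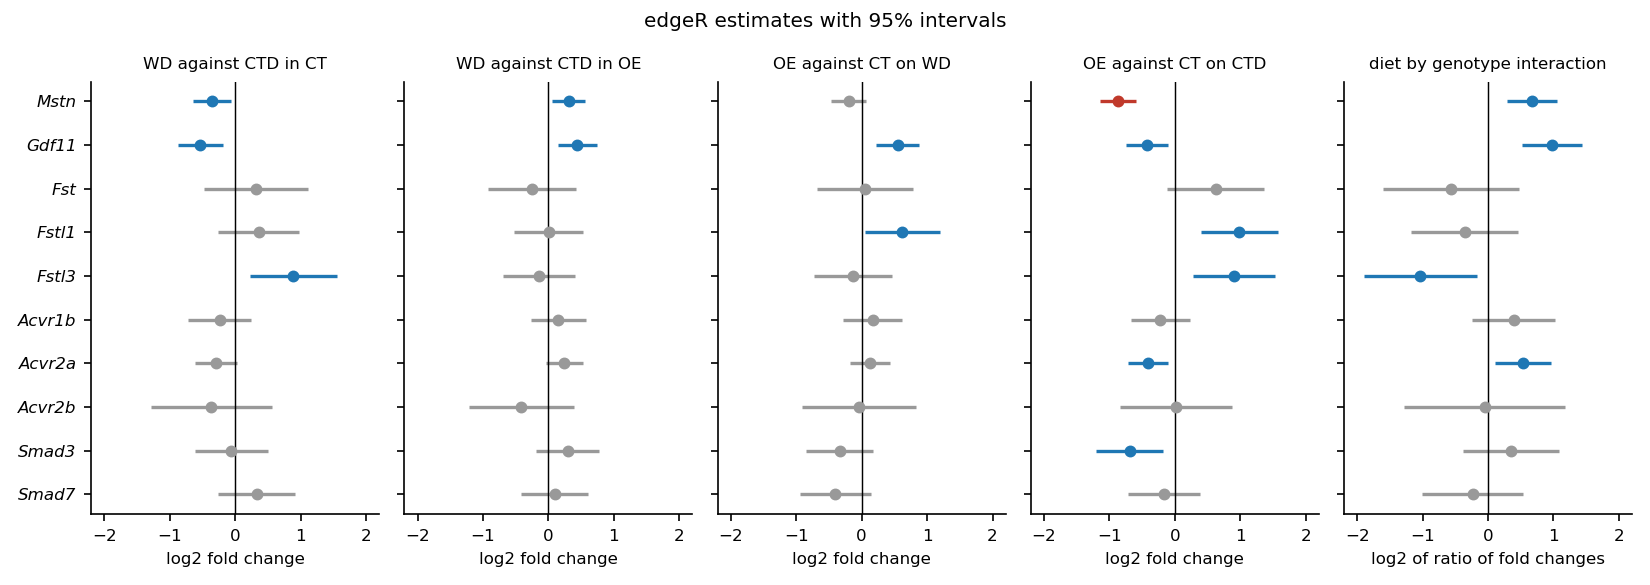
edgeR log2 fold changes of the 10 genes with 95% intervals in 4 pairwise comparisons and the diet by genotype interaction, where the axis is the log2 ratio of fold changes. Red marks an adjusted p under 0.05 with a fold over 1.5 (Mstn, OE against CT on CTD), blue an unadjusted p under 0.05 and grey the rest.

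Fstl1 (ENSMUSG00000022816, chromosome 16, 37776873 to 37836514, plus strand) encodes a secreted glycoprotein related to follistatin that is made largely by fibroblast-like cells. The CT-CTD libraries held 37.9, 39.6 and 31.3 CPM of Fstl1 and the CT-WD libraries 69.8, 31.2 and 38.4 CPM. It was 72.1, 84.0, 84.9 and 45.3 CPM in OE-CTD and 66.0, 98.5, 73.6 and 49.1 CPM in OE-WD. Every overexpressing library lay above every control library except CT-WD 1, which lay among them, and OE-CTD 4 and OE-WD 4 were the lowest of their groups. Averaged over both diets, Fstl1 rose by a log2 fold change of 0.80 in overexpressing mice (SE 0.19, fold 1.75, edgeR adjusted p = 0.0193). The call was lost without CT-CTD 3 (edgeR adjusted p = 0.0597), without CT-WD 2 (edgeR adjusted p = 0.054) and without CT-WD 3 (edgeR adjusted p = 0.0509). With libraries of the same code number summed, the log2 fold change was 0.72 and not called (edgeR adjusted p = 0.352). It was 1.16 without CT-WD 1, OE-CTD 4 and OE-WD 4 (edgeR adjusted p = 1e-04). Those libraries are also the ones in which Fstl1 departed from its groups, so leaving them out widens the difference by construction.

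On the control diet alone, Fstl1 had a log2 fold change of 0.98 in overexpressing mice (SE 0.28, edgeR adjusted p = 0.0769) with no overlap between the groups. It passed in DESeq2 (adjusted p = 0.0423), in edgeR without OE-CTD 4 (adjusted p = 0.0349), with only the libraries of both groups (adjusted p = 0.0168) and with no filter (adjusted p = 0.000859). Calibration of the fit with no filter was not tested. On the western diet it was 0.62 (SE 0.27, edgeR unadjusted p = 0.0365, adjusted p = 0.262), and CT-WD 1 overlapped the overexpressing libraries. Without CT-WD 1 it was 1.05 and called (edgeR adjusted p = 0.0234). The unadjusted p was 0.176 without CT-WD 2, 0.125 without CT-WD 3, 0.134 without OE-WD 2 and 0.061 without OE-WD 3. The diet estimates were 0.36 in control mice (SE 0.29, edgeR adjusted p = 0.873) and 0.0036 in overexpressing mice (SE 0.25, edgeR adjusted p = 1).

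Markers of other cell types moved with Fstl1. The list for fibroblasts and fibro-adipogenic progenitors had 8 of 8 genes detected in every library, with Gsn the most abundant at 405 to 1335 CPM. Its summed level was 1095, 914 and 766 CPM in CT-CTD, 2006, 898 and 913 CPM in CT-WD, 1796, 2125, 2023 and 1182 CPM in OE-CTD and 1533, 2956, 1838 and 1343 CPM in OE-WD. As with Fstl1, CT-WD 1 was high among controls, and OE-CTD 4 and OE-WD 4 were low among overexpressing libraries. Of these 8 genes, 7 were higher in overexpressing mice at an unadjusted p under 0.05 averaged over both diets and 5 were called in edgeR, where 23.9% and 3.64% of all genes did so in either direction. Over the 14 libraries, Fstl1 and the list's score, the median of its genes' log2 CPM after each gene was centred on its mean over the libraries, had a Pearson r of 0.979 and a Spearman rho of 0.965. Without OE-WD 2 and CT-CTD 3, the libraries farthest from the median of the score, r was 0.976, and within groups it was 0.962. The 7 tendon markers, all detected in every library and led by Fmod, summed to 239, 105 and 167 CPM in CT-CTD, 492, 85.4 and 109 CPM in CT-WD, 412, 619, 510 and 312 CPM in OE-CTD and 421, 864, 570 and 308 CPM in OE-WD. Tendon markers and Fstl1 had r = 0.886 and rho = 0.912, with r = 0.946 without CT-WD 3 and CT-WD 2 and 0.841 within groups. The 9 endothelial markers, all detected in every library and led by Cdh5 at 74.6 to 117 CPM, summed to 399, 394 and 418 CPM in CT-CTD, 478, 423 and 453 CPM in CT-WD, 493, 504, 475 and 451 CPM in OE-CTD and 513, 501, 520 and 502 CPM in OE-WD. They mark the cell type that carries the active transgene, and with Fstl1 they had r = 0.874 and rho = 0.761, with r = 0.881 without CT-CTD 1 and CT-CTD 2 and 0.752 within groups. Fstl1 and the score of 8 macrophage markers had r = 0.821 and rho = 0.816, with r = 0.767 without CT-CTD 3 and CT-CTD 2 and 0.687 within groups. Both measures of a pair come from the same libraries and share their depth and tissue make-up. The part of these markers in the Fstl1 result was not tested.

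**Figure D3:**
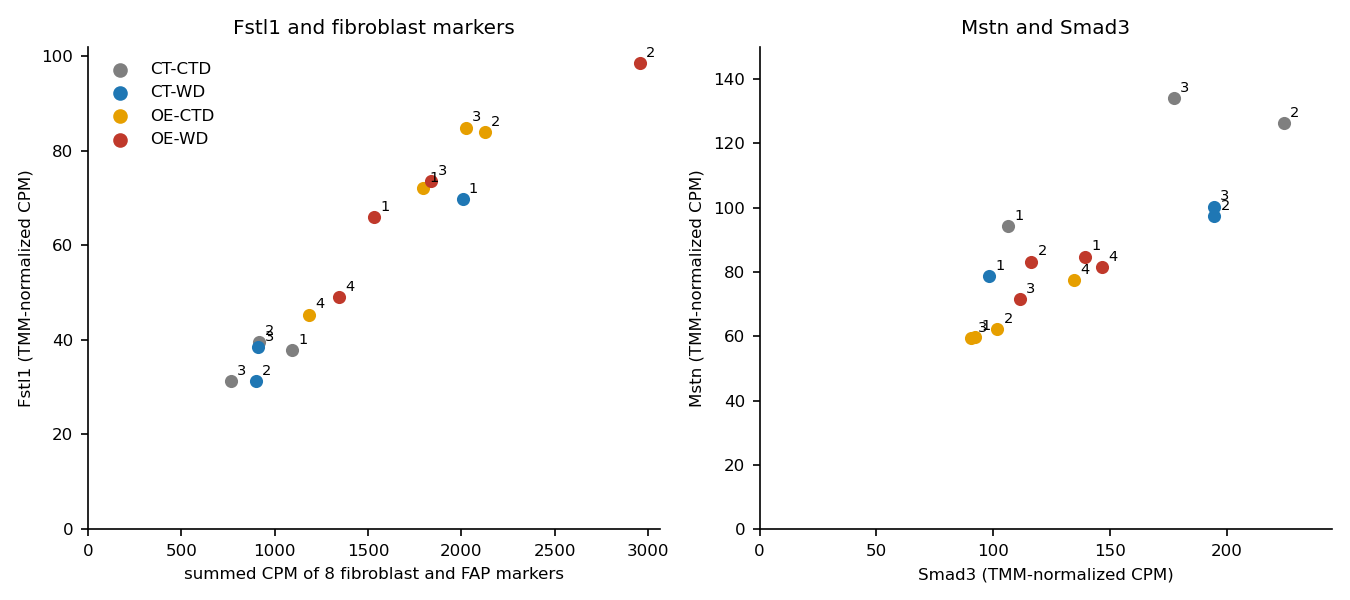
Left, Fstl1 CPM against the summed CPM of 8 fibroblast and fibro-adipogenic progenitor markers. Right, Mstn CPM against Smad3 CPM. Each point is a library, colored by group and numbered; CT-WD 1 lies among the overexpressing libraries on the left, at 2006 and 69.8 CPM.

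Fst (ENSMUSG00000021765, chromosome 13, 114452290 to 114458951, minus strand) encodes follistatin, which binds activins and myostatin and blocks their receptors' access. It was measured at 3.20, 2.89 and 2.74 CPM in CT-CTD, at 5.39, 2.66 and 2.85 CPM in CT-WD, at 5.52, 5.18, 4.87 and 2.45 CPM in OE-CTD and at 4.24, 4.70, 4.64 and 1.65 CPM in OE-WD. The 3 libraries apart from their groups made the groups overlap: CT-WD 1 was high, OE-CTD 4 was below all 3 CT-CTD libraries, and OE-WD 4 was the lowest of all 14. The log2 fold change in overexpressing mice was 0.62 on the control diet (SE 0.35, edgeR adjusted p = 0.421) and 0.058 on the western diet (SE 0.35, edgeR adjusted p = 0.954). Without CT-WD 1, OE-CTD 4 and OE-WD 4, Fst was called on both diets, at 0.82 on the control diet (edgeR adjusted p = 0.00749) and 0.71 on the western diet (edgeR adjusted p = 0.0193). Those 3 libraries were chosen from all genes after seeing the data, and they are also the ones in which Fst departed from its groups. The skeletal muscle marker score was high in OE-CTD 4 and OE-WD 4, where the 8 markers summed to 176000 and 180700 CPM against 124300 to 139400 CPM in the other 6 overexpressing libraries. Fst had an r of -0.893 and a rho of -0.855 with that score, r = -0.819 without OE-WD 4 and OE-CTD 4 and -0.955 within groups. Its part in the Fst values was not tested.

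Fstl3 (ENSMUSG00000020325, chromosome 10, 79777272 to 79782630, plus strand) encodes a follistatin-like protein that also neutralizes activins and myostatin. With 13 to 49 counts a library it was sparsely counted. It reached 0.514, 0.837 and 1.03 CPM in CT-CTD, 1.41, 1.64 and 1.38 CPM in CT-WD, 1.61, 1.62, 1.24 and 1.48 CPM in OE-CTD and 0.856, 1.54, 1.45 and 1.53 CPM in OE-WD. CT-CTD lay below all CT-WD and all OE-CTD libraries, and OE-WD 1 alone of the other 11 libraries fell into the CT-CTD range. The log2 fold change was 0.89 on the western diet in control mice (SE 0.31, edgeR adjusted p = 0.576) and 0.90 in overexpressing mice on the control diet (SE 0.30, edgeR adjusted p = 0.129). Their unadjusted p-values were 0.0121 and 0.00778, and that of the diet estimate was 0.0607 without CT-CTD 1. The diet estimates of the genotypes differed by -1.04 on the log2 scale (edgeR unadjusted p = 0.0216, adjusted p = 0.834), with an unadjusted p of 0.0647 without CT-CTD 1.

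Acvr2a (ENSMUSG00000052155, chromosome 2, 48814109 to 48903269, plus strand) encodes a type II receptor for activins and myostatin. It was measured at 48.1, 53.6 and 52.3 CPM in CT-CTD, at 37.7, 49.7 and 38.2 CPM in CT-WD, at 35.9, 39.0, 31.0 and 48.8 CPM in OE-CTD and at 43.2, 42.4, 42.5 and 54.8 CPM in OE-WD. CT-CTD was the highest group on average, CT-WD 2 and OE-CTD 4 reached into its range, and OE-WD 4 was the highest library of all. In each pair of control libraries with the same number, Acvr2a was lower on the western diet. The diet estimate in control mice was -0.2956 on the log2 scale (SE 0.152, edgeR unadjusted p = 0.0703). Overexpressing mice on the control diet had a log2 fold change of -0.41 (SE 0.14, edgeR unadjusted p = 0.0109, adjusted p = 0.153). The difference between the diet estimates was 0.54 (SE 0.20, edgeR unadjusted p = 0.0169, adjusted p = 0.834). The 3′ end of Acvr2a overlaps Orc4 on the opposite strand, which had a mean of 16.1 CPM, and the counting is not stated to use strand, so its counts are uncertain. Acvr2a was higher where muscle markers were higher, with r = 0.588 and rho = 0.631 for the score of the 8 skeletal muscle markers, r = 0.439 without OE-WD 4 and OE-CTD 4, and 0.803 within groups. Their sums were 144700, 155200 and 140900 CPM in CT-CTD, 137700, 166900 and 152300 CPM in CT-WD, 130300, 124300, 130800 and 176000 CPM in OE-CTD and 139400, 135900, 128200 and 180700 CPM in OE-WD. For the 11 fast fibre markers, all detected in every library and also led by Myh4, r was 0.573 and rho 0.53, with r = 0.406 without CT-WD 2 and OE-WD 4 and 0.848 within groups. These summed to 130900, 140300 and 128300 CPM in CT-CTD, 124500, 152600 and 138100 CPM in CT-WD, 118500, 114400, 118500 and 155000 CPM in OE-CTD and 127700, 124000, 120200 and 160700 CPM in OE-WD. OE-CTD 4 and OE-WD 4 were the highest of their groups in both lists and in Acvr2a. With the fibroblast score Acvr2a had r = -0.638 and rho = -0.675, r = -0.675 without OE-WD 2 and CT-CTD 3 and -0.631 within groups. The part of these markers in the Acvr2a values was not tested.

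Acvr2b (ENSMUSG00000061393, chromosome 9, 119402118 to 119434995, plus strand) encodes the other activin type II receptor and the main receptor of myostatin. It ranged from 1.01 to 4.39 CPM, with OE-CTD 4 the highest library and OE-WD 1 the lowest, and its group means were 2.28, 1.76, 2.33 and 1.72 CPM (CT-CTD, CT-WD, OE-CTD, OE-WD), with overlap in all 4 pairwise comparisons. The antisense gene Gm47320 lies within its span, with a mean of 3.35 CPM, and the counting is not stated to use strand, so the Acvr2b level is uncertain. Acvr1b (ENSMUSG00000000532, chromosome 15, 101174067 to 101213684, plus strand) encodes the type I receptor ALK4, which the type II receptors activate. Its libraries ranged from 36.1 CPM in CT-WD 3 to 94.4 CPM in CT-CTD 1, both in control mice, while OE-WD lay between 67.1 and 71.4 CPM. The log2 fold changes of Acvr1b in the 4 pairwise comparisons lay between -0.24 and 0.17 and those of Acvr2b between -0.42 and 0.011, with edgeR adjusted p of 0.674 or more for Acvr1b and 0.928 or more for Acvr2b.

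Smad3 (ENSMUSG00000032402, chromosome 9, 63646767 to 63757994, minus strand) encodes the transcription factor that the activated type I receptor phosphorylates. It was measured at 106, 224 and 177 CPM in CT-CTD, at 98.1, 195 and 194 CPM in CT-WD, at 92.4, 102, 90.7 and 135 CPM in OE-CTD and at 139, 116, 111 and 147 CPM in OE-WD. CT-CTD 1 and CT-WD 1 lay among the overexpressing libraries, and the other 4 control libraries lay above all 8 of them. Overexpressing mice on the control diet had a log2 fold change of -0.69 (SE 0.24, edgeR unadjusted p = 0.0121, adjusted p = 0.161), and averaged over both diets of -0.51 (SE 0.17, edgeR unadjusted p = 0.00897, adjusted p = 0.0783). On the western diet it was -0.338 (SE 0.244, edgeR unadjusted p = 0.186). With 1 library of these groups left out at a time, that estimate lay between -0.599 and -0.187, at an edgeR unadjusted p from 0.0153 to 0.507. On the control diet the unadjusted p was 0.109 without CT-CTD 2, and Smad3 was called without CT-CTD 1 (log2 fold change -0.94, edgeR adjusted p = 0.0458). It was also called there with no filter on low counts (edgeR adjusted p = 0.0111) and without CT-WD 1, OE-CTD 4 and OE-WD 4 (-0.83, edgeR adjusted p = 0.0231). Both settings have the limits given for them above. The averaged difference was called without CT-CTD 1 (edgeR adjusted p = 0.0215), without CT-WD 1 (edgeR adjusted p = 0.00807) and without OE-CTD 4 (edgeR adjusted p = 0.0464). With the skeletal muscle score Smad3 had r = 0.584 and rho = 0.657. Without OE-WD 4 and OE-CTD 4 this r was 0.778, and within groups 0.632. For the fast fibre score r was 0.632 and rho 0.648. Without CT-WD 2 and OE-WD 4 this r was 0.591, and within groups 0.721. Smad3 was lower where markers of several other cell types were higher. It had an r of -0.823 and a rho of -0.763 with the macrophage score, with r = -0.76 without CT-CTD 3 and CT-CTD 2 and -0.784 within groups. With the tendon score r was -0.818 and rho -0.736, with r = -0.753 without CT-WD 3 and CT-WD 2 and -0.82 within groups. With the fibroblast score r and rho were both -0.771, with r = -0.827 without OE-WD 2 and CT-CTD 3 and -0.715 within groups. The part of these markers in the Smad3 values was not tested.

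Smad7 (ENSMUSG00000025880, chromosome 18, 75367529 to 75395935, plus strand) encodes the inhibitory Smad that turns off the receptors. Its libraries ranged from 5.42 CPM in OE-WD 4 to 18.5 CPM in CT-WD 3, and the other 12 lay between 6.89 and 11.5 CPM. Every group overlapped every other, and the log2 fold changes in the pairwise comparisons lay between -0.40 and 0.33, with edgeR adjusted p of 0.455 or more.

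Across libraries, Mstn and Smad3 had a Pearson r of 0.837 and a Spearman rho of 0.842 in log2 CPM over 14 libraries, r = 0.776 without CT-CTD 3 and CT-CTD 2, and 0.886 within groups. Fst and Fstl1 had r = 0.766 and rho = 0.705, r = 0.935 without OE-WD 4 and OE-CTD 4, and 0.875 within groups. Mstn and Fstl1 ran in opposite directions, with r = -0.783 and rho = -0.771, r = -0.729 without CT-CTD 3 and CT-CTD 2, and -0.595 within groups. Mstn and its relative Gdf11 had an r of 0.383 and a rho of 0.323, r = 0.198 without CT-CTD 3 and CT-CTD 2 and 0.271 within groups. Each pair shares its libraries, their depth and their mix of cells. Mstn was also lower where the 8 macrophage markers were higher (r = -0.801, rho = -0.814, r = -0.608 without CT-CTD 3 and CT-CTD 2, -0.665 within groups). Those markers, all 8 detected in every library and led by Lyz2, summed to 78.6, 48.6 and 42.3 CPM in CT-CTD, 128, 64.0 and 52.5 CPM in CT-WD, 85.2, 102, 132 and 80.4 CPM in OE-CTD and 76.2, 128, 79.3 and 83.6 CPM in OE-WD. Mstn and the fibroblast score had r = -0.785, rho = -0.785, r = -0.861 without OE-WD 2 and CT-CTD 3 and -0.595 within groups. With the endothelial score Mstn had r = -0.747 and rho = -0.508, r = -0.701 without CT-CTD 1 and CT-CTD 2 and -0.389 within groups. With the tendon score it had r = -0.674 and rho = -0.732, r = -0.763 without CT-WD 3 and CT-WD 2 and -0.607 within groups. The 7 adipocyte markers, all detected in every library and led by Fabp4, summed to 510, 315 and 242 CPM in CT-CTD, 383, 257 and 283 CPM in CT-WD, 301, 278, 375 and 168 CPM in OE-CTD and 263, 314, 271 and 228 CPM in OE-WD. Mstn and their score had r = -0.358 and rho = -0.354, r = -0.237 without CT-WD 3 and CT-WD 2, and -0.801 within groups. The 7 epidermis markers, led by Krt5, summed to 42.8, 5.52 and 13.1 CPM in CT-CTD, 97.8, 9.86 and 11.3 CPM in CT-WD, 23.2, 39.2, 39.0 and 3.73 CPM in OE-CTD and 17.3, 87.0, 131 and 44.4 CPM in OE-WD. In OE-CTD 4, 3 of the 7 had no counts, Krt5 among them, and in CT-CTD 2 there was 1. Mstn and the epidermis score had r = -0.453 and rho = -0.503, r = -0.508 without OE-CTD 4 and CT-CTD 2, and -0.808 within groups. With the skeletal muscle score Mstn had r = 0.347 and rho = 0.481. Without OE-WD 4 and OE-CTD 4 this r was 0.627, and within groups 0.569. For the fast fibre score r was 0.323 and rho 0.437. Without CT-WD 2 and OE-WD 4 this r was 0.358, and within groups 0.591. The part of these markers in the Mstn result was not tested.

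The genes whose log2 CPM followed Mstn most closely over the 14 libraries, of 12745 genes with a symbol and a mean of at least 1 CPM, were Mtr (r = 0.965), Cdk19 (0.957), Eps15 (0.955), the type II BMP receptor gene Bmpr2 (0.951) and Ddb1 (0.932). Their Spearman rho was 0.916, 0.943, 0.899, 0.903 and 0.930, and r within groups was 0.866, 0.862, 0.889, 0.852 and 0.846 in the same order. Without CT-CTD 3 and CT-CTD 2, the libraries with Mstn farthest from its median, r was 0.935, 0.941, 0.903, 0.896 and 0.909.

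Because the 10 genes were chosen with earlier results of these data known, the shares of all genes below are a scale, not a test. For the western diet in control mice, edgeR called 0 of 10, as did DESeq2 and limma, against 0% of all tested genes. At an unadjusted p under 0.05, 3 of 10 passed in edgeR (Mstn and Gdf11 lower, Fstl3 higher), 3 in DESeq2 and 3 in limma, against 7.28% of all genes. Libraries of the 2 diets did not overlap in 2 of 10 genes, Gdf11 and Fstl3, against 9.63%. The median log2 fold change was -0.15 for the 10 and 0.0071 for all genes. Without CT-WD 2 the count was 5 of 10, with Acvr1b at -0.57 and Acvr2a at -0.44 added. Here and below, the shares of all genes are for all libraries. They give no background for counts with libraries left out or summed.

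In overexpressing mice the western diet gave edgeR calls in 0 of 10 genes, DESeq2 and limma also 0, against 0.00647% of all genes. At an unadjusted p under 0.05, 2 of 10 passed in edgeR, DESeq2 and limma alike (Mstn and Gdf11, both higher), against 4.2%, and 0 of 10 were without overlap against 4.08%. The median log2 fold change was 0.12 for the 10 and 0.0048 for all genes. With the replicate number as a block, the unadjusted count was higher, as given with the alternatives below. In every same-numbered pair of overexpressing libraries, Mstn, Gdf11, Acvr2a and Smad3 were higher and Fst was lower on the western diet. These libraries correlated best with their own number in 7 of 8 cases. The unadjusted count was 1 without OE-CTD 1 or OE-CTD 3, and 0 with libraries of the same code number summed.

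Between genotypes on the western diet, edgeR called 0 of 10, DESeq2 and limma also 0, against 0.563% of all genes. At an unadjusted p under 0.05, 2 of 10 passed in edgeR (Gdf11 and Fstl1, both higher in overexpressing mice), 1 in DESeq2 and 2 in limma, against 16.9%. Only Gdf11, 1 of 10, was without overlap, against 11.6%. The median log2 fold change was 0.0080 for the 10 and 0.0056 for all genes, so by count and by median the 10 genes did not stand out here. Without CT-WD 1, 5 of 10 passed the unadjusted p and 1 was called, Fstl1. The unadjusted count was 1 without CT-WD 3, OE-WD 2 or OE-WD 3. Leaving out CT-WD 1, OE-CTD 4 and OE-WD 4 together gave 6 at the unadjusted p and 2 called, Fst and Fstl1. The shares of all genes above are for all libraries and give no background for counts with libraries left out.

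Between genotypes on the control diet, more of the 10 genes passed the unadjusted p than in the other comparisons when all libraries were used. The difference between these counts was not tested, and the 10 genes were chosen with earlier results of these data known. edgeR called 1 of 10, Mstn, against 1.91% of all genes. At an unadjusted p under 0.05, 6 of 10 passed (Fstl1 and Fstl3 higher; Mstn, Gdf11, Acvr2a and Smad3 lower in overexpressing mice), against 15.9%. Groups did not overlap in 4 of 10 genes, Mstn, Gdf11, Fstl1 and Fstl3, against 15.5%. The median log2 fold change was -0.20 for the 10 and -0.00070 for all genes. The count of calls was 2 without CT-CTD 1, with Smad3 added, and 2 without OE-CTD 4, with Fstl1 added. Mstn was not called with the replicate number as a block. Without CT-CTD 2, Gdf11 (edgeR unadjusted p = 0.0666) and Smad3 (edgeR unadjusted p = 0.109) did not pass the unadjusted p. Without CT-WD 1, OE-CTD 4 and OE-WD 4, 4 were called (Mstn, Fst, Fstl1 and Smad3). Under that setting 6 passed the unadjusted p on the western diet as well. The shares of all genes above are for all libraries and give no background for counts under that setting. With libraries of the same code number summed, 3 passed the unadjusted p and 0 were called.

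The diet by genotype interaction asks whether diet acts differently in the 2 genotypes. It gave 0 of 10 calls in edgeR, DESeq2 and limma, against 0% of all genes, and 1 call, Gdf11, in edgeR with no filter on low counts. At an unadjusted p under 0.05, 4 of 10 passed in each of the 3 tools (Mstn, Gdf11 and Acvr2a with positive and Fstl3 with negative differences), against 5.92%. With libraries of the same code number summed, 1 passed, Gdf11. The median was 0.15 for the 10 and -0.0057 for all genes.

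Averaged over both diets, genotype gave 1 of 10 calls, Fstl1, against 3.64% of all genes. The unadjusted p passed for 3 of 10 (Fstl1 higher, Mstn and Smad3 lower), against 23.9%, with a median of -0.023 for the 10 and -0.0012 for all genes. The count of calls was 0 without CT-CTD 3, CT-WD 2 or CT-WD 3, 3 without CT-CTD 1 or CT-WD 1 (Mstn, Fstl1 and Smad3), and 2 without OE-CTD 4; without CT-WD 1, 5 passed the unadjusted p. Without CT-WD 1, OE-CTD 4 and OE-WD 4, 5 passed the unadjusted p and 4 were called (Mstn, Fst, Fstl1 and Smad3). The shares above are for all libraries and give no background for these counts. Averaged over both genotypes, diet gave 0 of 10 calls in edgeR, DESeq2 and limma against 0.00647%, and 0 of 10 at an unadjusted p under 0.05 in each tool against 5.96%. The medians were 0.0035 for the 10 and 0.0016 for all genes. The unadjusted count was 1 without CT-CTD 3 or OE-WD 1, in both cases Fstl3.

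Of 70 other genes of the pathway in 5 lists, 62 were tested. These lists were also chosen with earlier results of these data known. Between genotypes on the control diet 20 passed an unadjusted p under 0.05, 16 of them higher in overexpressing mice, and edgeR called 4, against 15.9% and 1.91% of all tested genes in either direction. These were the ligand gene Tgfb1 (log2 fold change 0.91, edgeR adjusted p = 0.0253), the ligand-processing protease gene Bmp1 (0.65, edgeR adjusted p = 0.0192), the latent TGF-beta binding protein gene Ltbp4 (0.74, edgeR adjusted p = 0.0078) and the matrix gene Fn1 (1.08, edgeR adjusted p = 0.0408). Ltbp4 lay at 136 to 157 CPM in CT-CTD and at 224 to 267 CPM in OE-CTD, and none of the 4 genes overlapped between these groups. On the western diet 17 passed the unadjusted p, 14 of them higher, against 16.9% of all genes in either direction. Ltbp4 was the 1 gene called (0.69, edgeR adjusted p = 0.0297), against 0.563%.

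Averaged over both diets, 27 of the 62 passed the unadjusted p, 21 higher and 6 lower, and edgeR called 8, all higher in overexpressing mice, against 23.9% and 3.64% of all genes in either direction. Among ligands these included the activin subunit genes Inhba (log2 fold change 0.88, edgeR adjusted p = 0.0359) and Inhbb (0.85, edgeR adjusted p = 0.0265), and Tgfb1 (0.66, edgeR adjusted p = 0.00989). Inhba was low in every library, at 0.532 to 2.47 CPM, and Inhbb lay at 0.821 to 4.13 CPM. Among binding proteins they were Ltbp4 (0.71, edgeR adjusted p = 0.000534) and the matrix proteoglycan gene Dcn (0.76, edgeR adjusted p = 0.0355). Among targets of Smad signaling they included Col1a1 (1.53, edgeR adjusted p = 0.0234) and Fn1 (0.88, edgeR adjusted p = 0.00989). CT-WD 1 lay among the overexpressing libraries in Col1a1 (316 CPM, against 53.3 and 49.0 CPM in CT-WD 2 and CT-WD 3), Fn1 (97.8 against 45.7 and 43.1 CPM), Dcn (339 against 175 and 154 CPM) and Inhbb (3.04 against 0.821 and 2.09 CPM). In Ltbp4 it was the highest control library, at 205 CPM against 157 and 145 CPM, and below all overexpressing libraries. The fibroblast markers, to which Dcn and Col1a1 belong, were also high in CT-WD 1 and moved with genotype as given above, and their part in the 8 calls was not tested. No gene of the lists for other receptors or for other Smads was called in any comparison, where 3 of 12 and 4 of 16 passed the unadjusted p averaged over both diets. Tgfbr1 (-0.41, edgeR adjusted p = 0.00844), Bmpr2 (-0.295, edgeR adjusted p = 0.0179) and Ski (0.31, edgeR adjusted p = 0.0142) passed the adjusted p there but not the fold. On the control diet the same held for Tgfbr1 (-0.53, edgeR adjusted p = 0.0292) and Bmpr2 (-0.45, edgeR adjusted p = 0.0288).

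For diet in control mice, 6 of the 62 passed the unadjusted p and edgeR called 0, against 7.28% and 0% of all genes, so the list was near the background. The lowest p-values were those of the corepressor gene Tgif1 (log2 fold change 1.26, edgeR adjusted p = 0.427) and the endothelial receptor genes Acvrl1 (0.39, edgeR adjusted p = 0.555) and Eng (0.49, edgeR adjusted p = 0.561). Tgif1 was at 6.67 to 7.16 CPM in CT-CTD and at 7.67, 17.8 and 24.1 CPM in CT-WD, so CT-WD 1 lay near the control diet group. In overexpressing mice 2 passed, the receptor genes Tgfbr3 (0.31, edgeR adjusted p = 1) and Tgfbr1 (0.25, edgeR adjusted p = 1), against 4.2% of all genes, and edgeR called 0, against 0.00647%. Acvrl1 was next at 0.22. Averaged over both genotypes 7 passed, all higher on the western diet, and edgeR called 0, against 5.96% and 0.00647% of all genes in either direction, led by Acvrl1 (0.31), Tgif1 (0.80) and Eng (0.37). Of the 9 endothelial markers, 5 passed the unadjusted p in that comparison, 4 higher and 1 lower on the western diet. Their part in these values was not tested. The interaction passed for 2, Ldlrad4 (-0.64) and Bmpr2 (0.31), followed by Bmpr1a (0.37), and edgeR called 0, against 5.92% and 0% of all genes.

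Promoters of the 2 ligand genes are shown because Mstn was the called member on the control diet and Gdf11 is its closest relative. RefSeq promoter sequences (GRCm38.p6) were held for 8 of the 10 genes (Fst and Smad7 were not analysed here), and the 250 bases before each start were searched on both strands for 3 motifs. CANNTG is the E-box that basic helix-loop-helix proteins bind, CACGTG is the E-box preferred by Myc and is itself a CANNTG, and CAGAC is a Smad-binding element. Among 32851 promoters of the same length, 66.2% held CANNTG, 6.02% held CACGTG and 42.2% held CAGAC. Mstn had 4 CANNTG, 0 CACGTG and 2 CAGAC matches, and Gdf11 had 1, 0 and 0. CACGTG was found in 1 of the 8, Acvr1b. Capitals mark CANNTG and CAGAC matches in chr1:53061390-53061639 (plus strand) and chr10:128891719-128891968 (minus strand), each 5′ to 3′. A match is a description of these letters only.
Mstn promoter: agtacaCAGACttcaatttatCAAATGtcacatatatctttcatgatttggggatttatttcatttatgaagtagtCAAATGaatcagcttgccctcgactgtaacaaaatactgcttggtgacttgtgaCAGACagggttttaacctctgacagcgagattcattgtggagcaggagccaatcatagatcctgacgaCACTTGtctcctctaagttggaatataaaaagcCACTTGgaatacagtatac
Gdf11 promoter: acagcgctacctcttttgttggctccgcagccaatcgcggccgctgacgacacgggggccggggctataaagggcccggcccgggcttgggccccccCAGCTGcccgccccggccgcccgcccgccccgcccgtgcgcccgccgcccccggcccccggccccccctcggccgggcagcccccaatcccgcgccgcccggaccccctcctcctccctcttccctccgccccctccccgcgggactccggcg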

How the data were processed

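The authors deposited a table of raw gene counts and a table of FPKM for 14 libraries, made, according to the submitters' processing notes, with HISAT2 2.0.5 and featureCounts 1.5.0-p3 on mm10. Counts were tested in R 4.3.3 with edgeR 4.0.16 (TMM, filterByExpr, quasi-likelihood F test, a mean for each of the 4 groups), which kept 15458 of 54532 genes at a biological coefficient of variation of 17%. Totals of 21833839 to 28519159 counts per library set the precision of low levels. Alternatives used DESeq2 1.42.0 (Wald test, size factors), limma 3.58.1 on log2 FPKM with 1 or 0.1 added, no filter, only the libraries of both groups, the replicate number as a block, a swap of the CT-WD and OE-CTD labels, each library left out, and the 2 settings added after seeing the data. The steps were tested on simulated data. FPKM divide by less than the full count total, by 79.9% to 98.0% of it.

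The members and lists were chosen with earlier results of these data known. Named genes are the 10 members in every comparison, each pathway gene called in a comparison or else the 3 with the lowest p and at least 1 CPM, and the 5 genes most like Mstn. Same-numbered CT libraries deviated together from their group means on the 2 diets (r = 0.385, 0.123 and 0.203). From this check alone, same-numbered CT libraries are described as pairs above. The reported tests are unpaired, and the numbers entered only the replicate block.

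The 9 slow fibre genes had mean summed levels of 5731, 5851, 6838 and 6548 CPM in CT-CTD, CT-WD, OE-CTD and OE-WD, and the 6 satellite cell genes 72.2, 74.4, 59.2 and 62.7 CPM. No slow fibre gene was called in any comparison. Averaged over both diets, 2 of the 9 passed the unadjusted p, both higher in overexpressing mice, and 4 of the 6 satellite cell genes did, 2 higher and 2 lower, with 2 called in edgeR, against 23.9% and 3.64% of all genes. For diet, 0 of either list passed.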

Additional observations from a re-analysis of the deposited data

Results flagged for a closer look

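In groups of 4, a library was singled out when its gap to the nearest other library, as a share of the group's range, exceeded Dixon's 95% critical value, which chance gives in about 1 of 20 groups. Of the 20 groups examined (10 genes in OE-CTD and OE-WD), 5 had such a library. Mstn in OE-CTD 4 was high at 77.4 CPM (0.85 of the range). Acvr2b in OE-CTD 4 was high at 4.39 CPM (0.835). Fst in OE-WD 4 was low at 1.65 CPM (0.85), and Acvr2a in OE-WD 4 was high at 54.8 CPM (0.936). Fstl3 in OE-WD 1 was low at 0.856 CPM (0.859). OE-CTD 4 and OE-WD 4, the libraries in 4 of these 5 results, also stood apart on the second principal component.

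The diet estimates of the 2 genotypes differed at an unadjusted p under 0.05 in the interaction test for 4 genes. With the filter on low counts none of the 4 passed edgeR's adjustment, and with no filter Gdf11 did (edgeR adjusted p = 0.0481). On the log2 scale the differences were 0.67 for Mstn, 0.97 for Gdf11, -1.04 for Fstl3 and 0.54 for Acvr2a.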

How the results depend on the processing

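Each of the 70 log2 fold changes (10 genes in 7 comparisons) was recomputed under every alternative that applied, giving 1370 values. Of these, 1186 kept their direction and their side of an unadjusted p of 0.05, 32 no longer passed it, 47 newly passed it and 105 changed sign. Of the sign changes, 2 concerned an estimate that passed the unadjusted p as reported, both with the names exchanged. The 20 estimates with an unadjusted p under 0.05 all kept it with DESeq2 size factors, with no filter, under both limma fits and with the replicate block; DESeq2 kept 19. The cause of the shifts below was not tested unless named.

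With CT-WD and OE-CTD exchanged, the 2 groups swap places in the comparisons by construction. Diet in control mice then had 6 genes at an unadjusted p under 0.05 and 1 called, with Acvr2b at 0.0108 and Smad7 at -0.168. Diet in overexpressing mice had Mstn at -0.199, Fst at 0.0581, Smad3 at -0.338 and Smad7 at -0.403. Genotype on the western diet had Mstn at 0.311, Fst at -0.25, Smad3 at 0.293 and Smad7 at 0.0931, and on the control diet 3 genes at an unadjusted p under 0.05 and 0 called in edgeR, with Acvr2b at -0.364 and Smad7 at 0.328. Averaged genotype had 0 at the unadjusted p and 0 called in edgeR, with Gdf11 at -0.0488, Smad3 at 0.116 and Smad7 at 0.211. Averaged diet had 3 and 1, with Gdf11 at 0.0623, Smad3 at -0.515 and Smad7 at -0.286.

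Without CT-WD 1, OE-CTD 4 and OE-WD 4, diet in control mice had Fst at -0.0897, Fstl1 at -0.0506 and Smad3 at 0.208, and diet in overexpressing mice had Fstl1 at -0.0149. Genotype on the western diet had 6 genes at the unadjusted p and 2 called, with Acvr2a at -0.0458, and on the control diet 4 called, with Acvr2b at -0.475. The interaction had Fstl1 at 0.0357 and Acvr2b at 0.238. Averaged genotype had 5 and 4 called, with Gdf11 at -0.0647, and averaged diet had 1 at the unadjusted p, with Mstn at 0.0753, Fst at -0.143, Fstl1 at -0.0328 and Acvr2a at 0.0285. With libraries of the same code number summed, which leaves fewer samples, the unadjusted counts were 0 for diet in overexpressing mice, 1 for genotype on the western diet, 3 on the control diet and 1 for the interaction, with 0 called in edgeR on the control diet and 0 averaged over both diets, where Acvr2b was at 0.153.

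With the replicate number as a block, Mstn was not called between genotypes on the control diet (log2 fold change -0.95, edgeR adjusted p = 0.057), so that comparison had 0 called in edgeR, and the block changed no other call of a member. Under the block, diet in overexpressing mice had 4 genes at the unadjusted p and averaged genotype 5. Acvr2b was at -0.479 between genotypes on the control diet and at 0.0126 in the interaction, averaged genotype had Gdf11 at -0.034 and Acvr1b at 0.0111, and averaged diet had Fst at -0.00658. Pairing by number was checked by the correlation of same-numbered libraries' deviations from their group means. It was 0.0711, 0.138, 0.142 and 0.338 for diet in overexpressing mice, -0.23, -0.158 and -0.0647 for genotype on the western diet, and 0.0465, -0.113 and -0.122 on the control diet. A library correlated best with its own number in 7 of 8, 0 of 6 and 1 of 6 cases, a hint from the data and not from the design.

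DESeq2 had 1 gene at the unadjusted p between genotypes on the western diet and 2 called on the control diet. With no filter, 3 were called on the control diet and 1 in the interaction. With only the libraries of both groups, 1 passed the unadjusted p between genotypes on the western diet, 2 were called on the control diet, and Fstl1 was at -0.00387 for diet in overexpressing mice. limma with 1 added gave Acvr2b -0.0111 between genotypes on the control diet, Acvr1b 0.0251 averaged over diets and Fst -0.00419 for averaged diet. With 0.1 added, these were -0.0869, 0.03 and -0.021, and Acvr2b in the interaction was 0.0315.

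Leaving out each library in turn gave these ranges. The unadjusted count was 2 to 5 for diet in control mice, 1 to 3 for diet in overexpressing mice, 1 to 5 for genotype on the western diet, 3 to 5 for averaged genotype and 0 to 1 for averaged diet. For genotype on the control diet, Gdf11 and Smad3 no longer passed without CT-CTD 2, and Fst newly passed in 1 omission (edgeR unadjusted p = 0.0266). Calls numbered 0 to 1 for genotype on the western diet, 1 to 2 on the control diet and 0 to 3 for averaged genotype. For diet in control mice, Fst ranged from -0.0969 to 0.491, Fstl1 from -0.0584 to 0.579, Acvr1b from -0.573 to 0.0348, Smad3 from -0.305 to 0.201 and Smad7 from -0.0855 to 0.539. For diet in overexpressing mice, Fstl1 ranged from -0.186 to 0.148, Fstl3 from -0.222 to 0.0184, Acvr2b from -0.758 to 0.0673 and Smad7 from -0.0216 to 0.28. For genotype on the western diet, Fst ranged from -0.12 to 0.471, Fstl3 from -0.212 to 0.0282, Acvr1b from -0.108 to 0.499, Acvr2b from -0.383 to 0.139 and Smad7 from -0.612 to 0.0103. On the control diet Acvr2b ranged from -0.474 to 0.185. In the interaction, Fstl1 ranged from -0.576 to 0.0643, Acvr2b from -0.394 to 0.431 and Smad7 from -0.443 to 0.178. For averaged genotype, Acvr1b ranged from -0.166 to 0.137 and Acvr2b from -0.258 to 0.074. For averaged diet, Mstn ranged from -0.092 to 0.0275, Fst from -0.172 to 0.156, Fstl1 from -0.0263 to 0.292, Acvr1b from -0.211 to 0.093, Acvr2a from -0.0965 to 0.0384 and Smad3 from -0.00513 to 0.248.

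RNA levels say nothing of protein, of receptor activity or of the cell type that made each transcript. The groups of 3 and 4 libraries limit which differences can pass adjustment, and counts of Fstl3, Fst and Acvr2b are low. All 4 pairwise comparisons share groups with another, so their values for a gene are not independent.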
